A study of Mus musculus with 56 samples.

Results

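The anterior hypothalamus was compared at zeitgeber time 24 (ZT24), the moment of lights-on, between mice fed only by day and mice fed only by night. The 8 mice at ZT24, 4 under daytime-restricted feeding (DRF) and 4 under nighttime-restricted feeding (NRF), were taken by their labels from 56 mice collected at 7 time points, and no measured value entered the choice. All were C57BL/6J females, 9 weeks old, kept in 12 h of light and 12 h of dark and placed on their regimen for 7 days. DRF mice had food from ZT0 to ZT12 and NRF mice from ZT12 to ZT24. By that schedule, NRF mice were at the end of their feeding window at ZT24, and DRF mice were at the end of 12 h without food. Both groups ate normal chow, and the labels give no genetic change or drug. Each mouse gave 1 library of polyadenylated RNA from a block of tissue that holds the medial preoptic area, the supraoptic, suprachiasmatic and paraventricular nuclei and the anterior hypothalamic area. The 8 mice at ZT0, the same time of day 1 cycle earlier, are other animals, and they and the 8 mice at ZT12 serve here only for comparison.

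The hypothalamus receives time from light through the suprachiasmatic nucleus and from meals through hormones, nutrients and body temperature. Heat-shock genes code for chaperones that help proteins fold, and the factor HSF1 switches them on when temperature or misfolded protein rises. Glucocorticoids bind a nuclear receptor that acts on genes such as Fkbp5, Sgk1, Per1 and the metallothioneins, and in rodents their daily rise follows both the dark phase and the expected meal. During a fast, FOXO factors become active as insulin falls.

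Levels are given as CPM, the reads of a gene scaled to the size of the mouse's normalised library, recovered from the deposited values. Differences are DRF minus NRF on the log2(CPM + 1) scale, which understates the change of genes with few reads, and each comes with its standard error (SE). Genes were tested with limma across all 16231 genes that passed a filter on low values, two-sided, and called at a Benjamini-Hochberg adjusted p under 0.05. The limma SEs and p-values rest on the spread among the 4 mice within each group, pooled over the groups and moderated towards a trend over all genes. The labels give the mice as separate samples and do not tie them to a cage or a batch. The paper states that mice were housed in groups during acclimation and does not say which shared a cage.

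The reads recovered for the deposited genes summed to 30296789 to 31892358 in the 8 libraries. Over 13991 genes the correlation of log2 levels was 0.992 to 0.998 within a group and 0.993 to 0.996 across groups. Marker sums of brain regions varied among the mice, and whether the dissection differed was not tested. Summed over 6 arcuate nucleus markers (Agrp, Pomc, Kiss1, Ghrh, Tbx3 and Npy), DRF mice 1 to 4 had 105, 48.7, 116 and 28.6 CPM, whereas NRF mice had 73.3 to 87.0 CPM. Summed over 10 markers of the anterior hypothalamic nuclei, among them Avp, Oxt, Crh, Vip, Sim1 and Otp, DRF mice 1 to 4 had 651, 331, 717 and 428 CPM, whereas NRF mice had 473 to 567 CPM. DRF mice 2 and 4 were therefore the lowest of the 8 in both sums, and DRF mice 1 and 3 the highest. The same DRF mice 2 and 4 had the highest oligodendrocyte marker sums, 7408 and 6950 CPM, against 5162 to 6166 CPM in the other 6 mice. Thalamus markers were highest in NRF mouse 4, at 681 CPM, against 331 to 505 CPM elsewhere. Striatum markers spanned 245 to 411 CPM in DRF and 239 to 399 CPM in NRF, and blood markers 283 to 369 CPM and 193 to 315 CPM. Over 16 marker lists the smallest p between the regimens in an exact two-sided permutation test was 0.0571, for endothelial cells and pericytes (adjusted p = 0.914), where 4 against 4 mice allow no p below 0.0286. The libraries also differed in how their values moved with the GC content of genes, with slopes of 0.0054 to 0.042 log2 units per 10 percentage points in DRF and -0.071 to 0.012 in NRF. Fewer cells of a type and less RNA per cell cannot be told apart in such tissue.

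**Figure D1:**
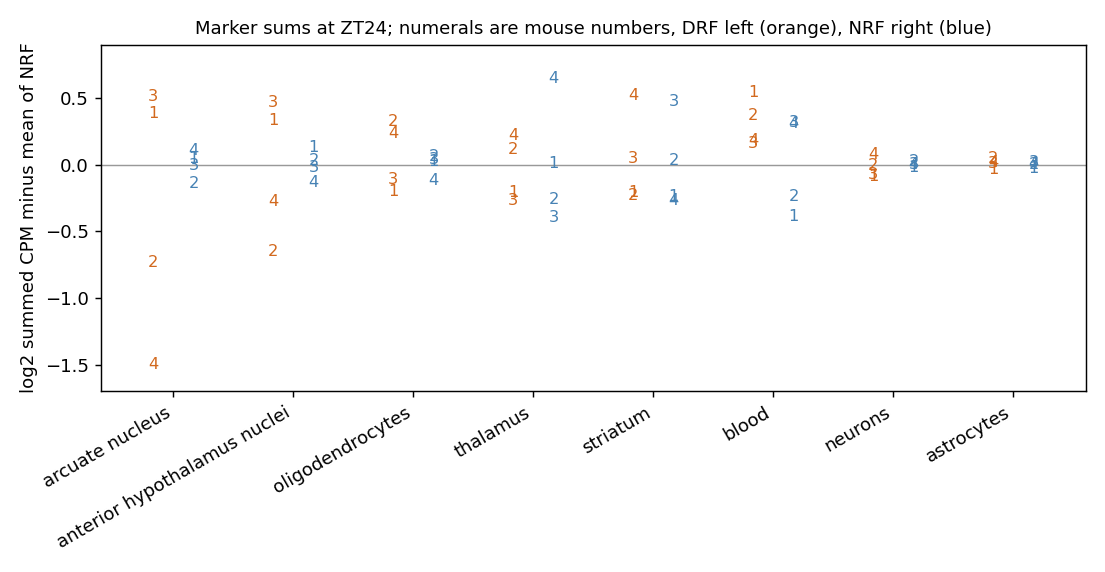
Summed CPM of 8 marker lists in each of the 8 mice at ZT24, on the vertical axis as log2 minus the mean of the 4 NRF mice, with each numeral standing for 1 mouse (DRF in orange at left, NRF in blue at right). DRF mice 2 and 4 lie lowest for the arcuate nucleus and the anterior hypothalamic nuclei and highest for oligodendrocytes, whereas the neuron and astrocyte sums differ little.

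At ZT24 the feeding time set apart a small group of genes. Of the 16231 genes tested, 22 (0.136%) differed between DRF and NRF, 13 of them higher in DRF (0.0801%) and 9 lower (0.0554%), while 1937 (11.9%) had an unadjusted p under 0.05. Among the higher genes were Hif3a, H1f2, Pla2g4e, Icosl, Etnppl, Mertk, a gene with no symbol in the reference (gene number 105244832), Pigz, Slc7a5, H1f0 and Mapk4. The lower ones were Serpinh1, Chordc1, P4ha1, Uba6, Vcam1, Aqp4, Hsph1, Slc5a3 and Mettl16. In all 22 the 4 DRF and 4 NRF values did not overlap (7.7% of all genes), a separation that their choice by p largely fixes, and the differences ran from -0.51 for Serpinh1 to 1.39 for Hif3a. The median difference of all genes was -0.0016. All 22 were also called with the arcuate marker sum as a term in the fit and without DRF mice 2 and 4, where the counts over all genes were 163 and 578. Both fits were added after these mice were seen to lie apart, so the kept calls are no support for the 22. Without DRF mouse 4 alone 98 genes were called, and without any other single mouse 8 to 14. Of the 22, 7 passed in each of the 8 fits that left out 1 mouse, Hif3a in 6, Mertk in 5 and the other 13 in 1 to 3. With each library's trends with GC content, length and expression removed 16 were called. On the scale of the deposited values, or without limma's mean trend and robust estimation, 1 gene was called, Serpinh1, and the 22 genes had the same direction in every alternative.

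**Figure D2:**
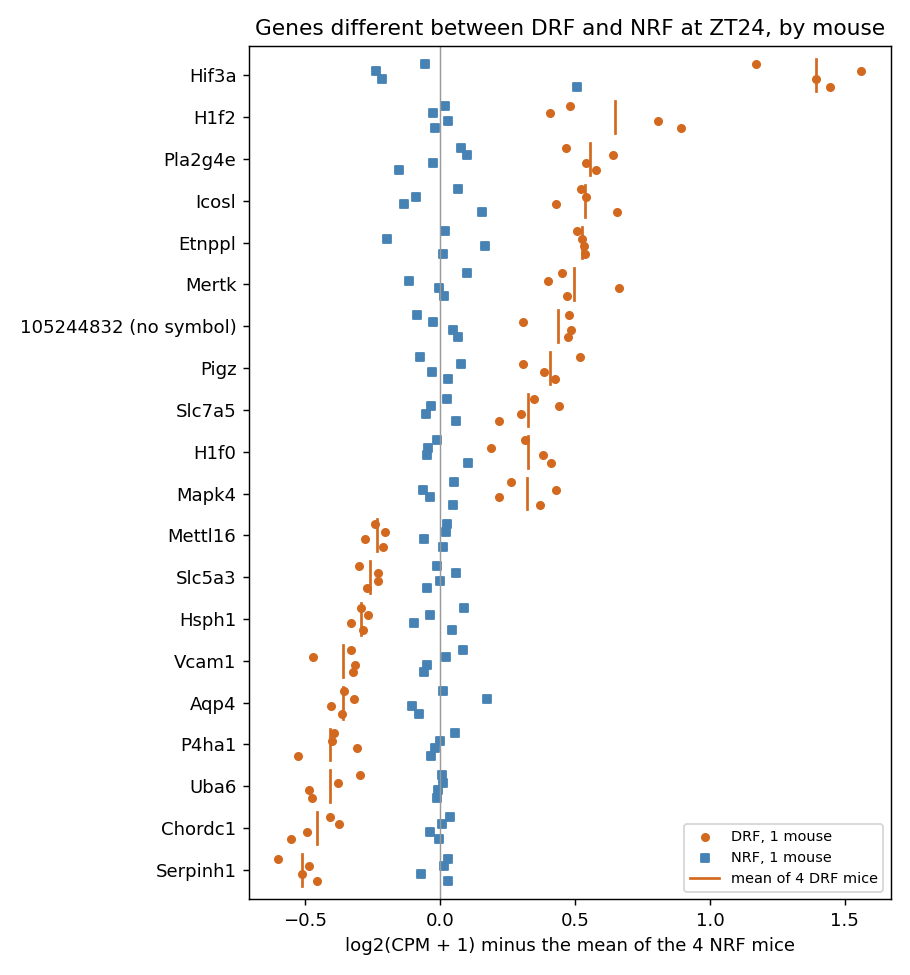
Called genes at ZT24 (20 of the 22) in every mouse, with the horizontal axis giving log2(CPM + 1) minus the mean of the 4 NRF mice, DRF mice as orange circles, NRF mice as blue squares and the DRF mean as a bar. In each row the circles and squares do not overlap, from Hif3a (difference 1.39) at the top to Serpinh1 (-0.51) at the bottom.

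Of the genes called lower, 2 code for chaperones or their partners in the cytosol. Chordc1 (chr9:18292267-18314000, GRCm38), which codes for a partner of the chaperone Hsp90, was at 67.8, 70.8, 76.9 and 75.1 CPM in DRF mice 1 to 4 and at 99.7, 97.3, 100.5 and 103 CPM in NRF mice 1 to 4. It fell by 0.46 (SE 0.05, adjusted p = 0.00376), and the lowest NRF mouse was above the highest DRF mouse by more than the range within either group. Hsph1 (chr5:149616843-149636498), an Hsp110 protein that recharges the chaperone Hsp70, was at 372, 360.5, 377 and 370.1 CPM in DRF and at 468, 424, 442 and 483 CPM in NRF, and fell by 0.29 (SE 0.04, adjusted p = 0.0246). The DRF mice lay close together for Hsph1 and all lay under the lowest NRF mouse.

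The rest of the cytosolic and mitochondrial heat-shock genes pointed the same way with smaller differences. Of 21 such genes, all 21 had a difference below 0, against 8231 of the 16231 genes tested, and in 16 of the 21 every DRF mouse was below every NRF mouse, against 4.42% of all genes. The median of the list was -0.17, and the differences ran from -0.52 to -0.07. Only Chordc1 and Hsph1 passed the test over all genes, and of the 8 fits that left out 1 mouse Chordc1 passed in 8 and Hsph1 in 2. Hspa8, the constitutive Hsp70, had a difference of -0.17 (SE 0.04, adjusted p = 0.102), and Dnaja1, its J-domain partner, was at 312, 328, 322 and 315 CPM in DRF and 365, 347, 357 and 382 CPM in NRF, a difference of -0.18 (SE 0.04, adjusted p = 0.102). For Hsp90aa1 and Hsp90ab1, the inducible and constitutive cytosolic Hsp90, the differences were -0.20 and -0.11 (adjusted p = 0.15 and 0.254). Hspa1b, the heat-inducible Hsp70, was at 5.798, 3.88, 4.92 and 4.47 CPM in DRF and 8.44, 7.18, 6.29 and 7.099 CPM in NRF without overlap, a difference of -0.52 (SE 0.11, adjusted p = 0.101). Hspa1a and Hspa1b are near-identical copies, so how their reads were split is uncertain. Hsf1 itself was at a mean of 40.0 CPM in DRF and 42.9 CPM in NRF, with overlap (difference -0.10, adjusted p = 0.537). In each DRF mouse the median of the 21 genes was 0.15 to 0.20 below the mean of the NRF mice, DRF mice 2 and 4 included, and the list's median was -0.17 without those 2 mice and -0.19 with the GC and length trends removed.

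Sequence around the starts of these genes is shown because the heat-shock factor binds a short repeat of GAA and its reverse complement. Promoter windows of 300 bases, from 250 before to 50 after a start, came from RefSeq on GRCm38.p6 and held 16 of the 21 genes. The element searched was GAANNTTCNNGAA or TTCNNGAANNTTC on both strands, 2 spellings that are reverse complements of each other, and it was present in 4 of the 16 (25%), against 0.555% of the 12802 tested genes with a window and 0.603% of all windows. The 4 were Chordc1, Hsph1, Hspd1 and Hspe1, the last pair coding for mitochondrial Hsp60 and its lid Hsp10 and sharing 1 promoter between them. They read as follows, 5′ to 3′ on the gene's strand with the match in capitals. The Chordc1 match, which 2 others in the same stretch overlap, lies at bases 2 to 14 counted from the RefSeq start of its window. The Hsph1 match lies at bases 16 to 28 from one of its RefSeq starts and at bases 37 to 49 from another, and the stretches of Hspe1 and Hspd1 are the same double strand read in each direction. In that shared promoter a further match overlaps the match shown.
Chordc1 (chr9:18292260-18292288, plus strand): ccggaacgTTCGGGAAAATTCctgaagca
Hsph1 (chr5:149636280-149636308, minus strand): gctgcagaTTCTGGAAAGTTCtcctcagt
Hspe1 (chr1:55088047-55088083, plus strand): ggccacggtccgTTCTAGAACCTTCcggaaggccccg
Hspd1 (chr1:55088047-55088083, minus strand): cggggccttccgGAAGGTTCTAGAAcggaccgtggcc
Both Chordc1 and Hsph1, the heat-shock genes called lower at ZT24, were among the genes with a match. Hspd1 and Hspe1 had differences of -0.14 and -0.13 (limma adjusted p = 0.246 and 0.301). The heat-shock genes with a window and no match also lay below 0, as did all 21 of the list. Of the other 7 genes called lower in DRF, 4 had a window and none of these held the element. Other elements were searched in the windows of the 16 heat-shock genes. The E-box (CACGTG) was in 12.5%, against 10.9% of tested genes with a window. The metal response element (TGCACNC or TGCGCNC) was in 37.5%, against 39.2%. The D-box, RORE, glucocorticoid and cAMP response elements were in none. A match is a string of letters and was not tested for binding.

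Chaperones of the endoplasmic reticulum (ER), which fold secreted and membrane proteins, leaned the same way. Of 18 genes 17 had a difference below 0, with a median of -0.16, and 6 did not overlap between the groups, all lower (4.42% of all genes), but none passed the test over all genes, while 11 had an unadjusted p under 0.05 (11.9% of all genes). Pdia4, a disulfide isomerase, was at 55.9, 48.8, 54.4 and 46.3 CPM in DRF and 60.6, 60.3, 62.3 and 62.2 CPM in NRF, a difference of -0.26 (SE 0.06, adjusted p = 0.109). Hsp90b1, the ER Hsp90, was at 603, 562, 585 and 529 CPM in DRF and 658, 601, 651 and 669.7 CPM in NRF, where DRF mouse 1 lay above NRF mouse 2 (difference -0.18, SE 0.05, adjusted p = 0.178). In DRF mice 2 and 4 the median of the 18 genes was 0.20 and 0.26 below the NRF mean and in mice 1 and 3 it was 0.10 and 0.06 below, so the list was lowest in the mice with the low hypothalamic marker sums. Without those 2 mice the median was -0.09. A part of the dissection in these values was not tested.

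Serpinh1 (chr7:99345375-99353239), the ER chaperone of collagen also known as Hsp47, was at 16.7, 16.05, 16.4 and 15.03 CPM in DRF and 23.8, 22.1, 23.6 and 23.8 CPM in NRF, and fell by 0.51 (SE 0.05, adjusted p = 0.00376). P4ha1 (chr10:59323197-59373304), the catalytic subunit of collagen prolyl 4-hydroxylase, was at 43.2, 50.4, 47.2 and 47.4 CPM in DRF and 61.2, 61.9, 62.6 and 65.1 CPM in NRF, and fell by 0.41 (SE 0.05, adjusted p = 0.00698). For both genes the NRF mice lay close together, above every DRF mouse.

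Uba6 (chr5:86110720-86172743), an E1 enzyme that activates ubiquitin, was at 29.8, 29.5, 31.9 and 33.8 CPM in DRF and 41.3, 41.5, 42.1 and 41.98 CPM in NRF, and fell by 0.41 (SE 0.05, adjusted p = 0.00698). Of 38 proteasome subunits, which take up ubiquitin-marked proteins, 18 were above and 20 below 0, with a median of -0.0021, and none passed the test or had an unadjusted p under 0.05. Aqp4, the water channel of astrocyte end-feet, ranged from 117 to 124 CPM in DRF and from 145 to 176 CPM in NRF and fell by 0.36 (SE 0.06, adjusted p = 0.0325). The summed astrocyte markers, Aqp4 included, were 2767 to 2927 CPM in DRF and 2780 to 2874 CPM in NRF. Within that sum members went both ways, 5 of 8 above 0 and 3 below, and 4 had an unadjusted p under 0.05 (11.9% of all genes). Slc1a3 was higher in DRF without overlap (834 to 871 against 796 to 825 CPM). Slc5a3, the myo-inositol transporter that cells use against osmotic stress, ranged from 63.3 to 66.6 CPM in DRF and from 75.6 to 81.5 CPM in NRF and fell by 0.26 (SE 0.04, adjusted p = 0.0288). Vcam1, an adhesion molecule of endothelial and some glial cells, fell by 0.36 (SE 0.05, adjusted p = 0.0246), from 32.5 to 36.1 CPM in NRF down to 24.3 to 27.1 CPM in DRF. The summed markers of endothelial cells and pericytes were 234 to 265 CPM in DRF and 251 to 268 CPM in NRF, with 6 of the 8 below 0, and Cldn5 (23.2 to 24.7 against 26.4 to 30.7 CPM) and Emcn (5.07 to 6.12 against 6.69 to 7.84 CPM) were lower without overlap, and their part in the Vcam1 difference was not tested. Mettl16, a methyltransferase of RNA, fell by 0.23 (SE 0.04, adjusted p = 0.0464), with DRF mice at 51.9 to 54.6 CPM and NRF mice at 60.5 to 64.2 CPM.

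The gene with the largest difference among those called was Hif3a (chr7:17030993-17062427), a member of the hypoxia-inducible factor family whose transcript also responds to glucocorticoids. It was at 11.3, 10.9, 12.4 and 9.21 CPM in DRF mice 1 to 4 and at 5.45, 2.91, 2.84 and 3.36 CPM in NRF mice 1 to 4, so that even the highest NRF mouse was below every DRF mouse. The rise was 1.39 (SE 0.16, adjusted p = 0.00864).

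Hif3a belongs to a list of 25 tested glucocorticoid-responsive genes, of which 22 had a difference above 0 and 10 had every DRF mouse above every NRF mouse, against 3.27% of all genes. The median was 0.28, and 0.24 without DRF mice 2 and 4. Hif3a alone passed the test over all genes, so the rest are values. Mt1, a metallothionein that binds zinc and copper, was at 241, 245, 209 and 199.8 CPM in DRF and 142, 179, 146 and 141 CPM in NRF, a difference of 0.56 (SE 0.09, adjusted p = 0.0741). Mt2, its neighbour and paralogue, was at 130.5, 158, 113 and 120.1 CPM in DRF and 74.5, 88.9, 66.2 and 62.99 CPM in NRF, a difference of 0.83 (SE 0.13, adjusted p = 0.0913). Neither metallothionein overlapped between the regimens. Map3k6, a stress-activated kinase, was at 3.72, 3.38, 3.03 and 2.63 CPM in DRF and 1.95, 1.99, 1.84 and 1.91 CPM in NRF (difference 0.51, SE 0.09, adjusted p = 0.0647), and Klf15, a transcription factor of fasting metabolism, had a difference of 0.30 (SE 0.06, adjusted p = 0.0913), both without overlap.

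The best-known glucocorticoid targets did not pass. Fkbp5, a co-chaperone of the glucocorticoid receptor, was at 28.03, 28.6, 27.98 and 23.1 CPM in DRF and 22.2, 23.1, 23.1 and 22.4 CPM in NRF, a difference of 0.23 (SE 0.07, adjusted p = 0.19) in which DRF mouse 4 only just cleared the NRF mice. Sgk1, a kinase that governs ion transport, was at 25.6, 51.8, 57.4 and 45.95 CPM in DRF and 29.00, 28.2, 27.8 and 29.01 CPM in NRF, with 3 DRF mice far above and DRF mouse 1 below all NRF mice (difference 0.59, SE 0.24, adjusted p = 0.409). Per1, both a clock gene and a glucocorticoid target, was at 51.00, 72.1, 63.6 and 72.4 CPM in DRF and 53.2, 56.1, 46.8 and 51.7 CPM in NRF, and here too DRF mouse 1 was the one that lay within the NRF range (difference 0.30, SE 0.11, adjusted p = 0.321). Over the whole list the median in DRF mouse 1 was 0.08 above the NRF mean, whereas in DRF mice 2, 3 and 4 it was 0.37, 0.29 and 0.29 above it. Nr3c1, the glucocorticoid receptor itself, and Hsd11b1, which regenerates active glucocorticoid, had differences of -0.12 and -0.06 (adjusted p = 0.396 and 0.896).

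The receptor binds an imperfect palindrome, searched as GNACANNNTGTNC on both strands, a string that is its own reverse complement. It was found in 3 of the 22 genes of this list with a RefSeq promoter window (13.6%), against 0.43% of the tested genes with a window, and is shown to set beside the values. None of the 8 genes higher in DRF with a window, Hif3a among them, held it. Places are counted from the RefSeq start of the window with the match. In all 3 genes this start lies downstream of the first base of the gene's span, and the match lies inside the span.
Mt1 (chr8:94178983-94179019, plus strand, 82 to 94 bases before the start): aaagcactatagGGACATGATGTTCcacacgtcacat
Map3k6 (chr4:133240625-133240661, plus strand, 169 to 181 bases before the start): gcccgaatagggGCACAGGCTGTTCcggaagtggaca
Sgk1 (chr10:21993690-21993726, plus strand, 176 to 188 bases before the start): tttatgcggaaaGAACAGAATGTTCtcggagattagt
Mt1 and Map3k6 were the list's members with the smallest p after Hif3a. Klf15, Mt2, Fkbp5 and Per1 had a window without a match. In Per1, as in Sgk1, DRF mouse 1 was the lowest of the DRF mice. The match, in capitals, was not tested for binding. Other elements searched in this list were also above the share of tested genes. The E-box was in 22.7% (against 10.9%), the cAMP response element (TGACGTCA) in 9.09% (against 3.17%) and the metal response element in 50% (against 39.2%). The D-box, RORE and heat shock element were in none. Of the 8 genes higher in DRF with a window, 5 (62.5%) held the metal response element.

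**Figure D3:**
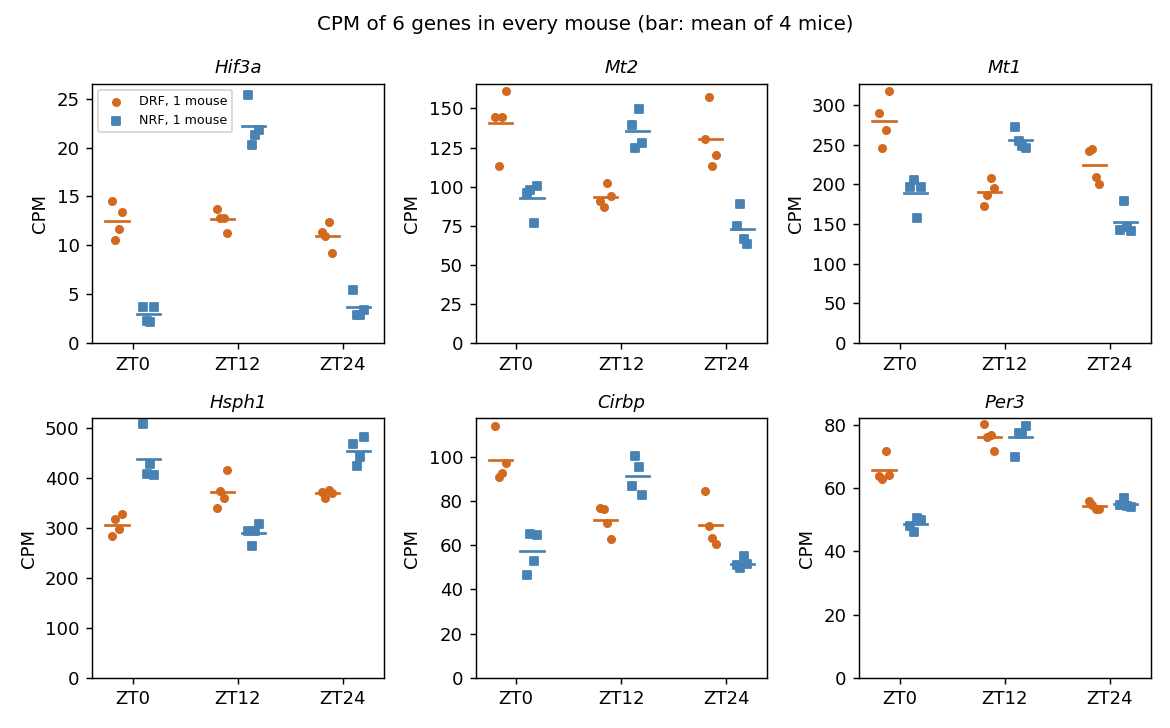
CPM (vertical axis, from 0) of Hif3a, Mt2, Mt1, Hsph1, Cirbp and Per3 in every mouse at ZT0, ZT12 and ZT24, with DRF as orange circles, NRF as blue squares and bars for the mean of 4 mice. Hif3a, Mt1, Mt2 and Cirbp are higher in DRF at ZT0 and ZT24 and lower at ZT12, Hsph1 the reverse, and Per3 lies apart at ZT0 and overlaps at ZT24.

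Among 26 insulin and FOXO fasting genes, 21 had a difference above 0 and 5 did not overlap, all higher (3.27% of all genes), with a median of 0.06, and none passed the test while 6 had an unadjusted p under 0.05 (11.9% of all genes). Those without overlap were Klf15, Pdk2, Trib1, Pik3ip1 and Txnip. Pdk4, a kinase that shuts glucose carbon out of mitochondria and commonly marks a fast in other tissues, was at 6.62, 10.1, 7.56 and 8.78 CPM in DRF and 8.22, 7.27, 7.83 and 7.87 CPM in NRF (difference 0.06, adjusted p = 0.869). Pdk2, another pyruvate dehydrogenase kinase, was at 107, 110.2, 113 and 117 CPM in DRF and 101, 101, 92.8 and 95.03 CPM in NRF (difference 0.20, SE 0.04, adjusted p = 0.116). Trib1, a pseudokinase that lowers lipid synthesis, was at 8.701, 10.4, 10.4 and 8.78 CPM in DRF and 7.23, 5.78, 7.695 and 7.31 CPM in NRF (difference 0.40, SE 0.09, adjusted p = 0.127). Without DRF mice 2 and 4 the list's median was -0.02, on the other side of 0. In cholesterol and fatty acid synthesis, 23 of 33 genes lay below 0 with a median of -0.05, and none passed while 8 had an unadjusted p under 0.05. Sc5d, of the last steps of cholesterol synthesis, was at 104, 109, 107 and 109 CPM in DRF and 117, 118, 117 and 124 CPM in NRF (difference -0.15, SE 0.04, adjusted p = 0.156), while Acacb, which makes the malonyl-CoA that restrains fatty acid burning, was on the other side (0.31, SE 0.08, adjusted p = 0.167).

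Among the amino acid lists 1 gene was called. Slc7a5 (chr8:121881146-121907686), the transporter that carries large neutral amino acids across the blood-brain barrier, was at 66.8, 70.8, 78.1 and 73.2 CPM in DRF and 59.8, 55.2, 55.97 and 58.4 CPM in NRF, and rose by 0.33 (SE 0.05, adjusted p = 0.0325). It was the single call among 23 genes of the ATF4 amino-acid response, whose median was 0.02. In that list 5 had an unadjusted p under 0.05 (11.9% of all genes). Without overlap were 4 higher genes (3.27% of all genes) and 1 lower (4.42%). Phgdh, the first enzyme of serine synthesis, was at 75.02, 75.7, 70.7 and 71.4 CPM in DRF and 64.04, 64.6, 64.8 and 59.5 CPM in NRF (difference 0.21, SE 0.04, adjusted p = 0.0992). Of 28 amino acid breakdown enzymes none passed, and 11 had an unadjusted p under 0.05 (11.9% of all genes). The median was 0.02, with 16 above and 12 below 0, so members moved both ways. Without overlap were 2 higher (3.27% of all genes) and 3 lower (4.42%). Pipox, of lysine breakdown, was at 5.93, 5.903, 5.602 and 5.62 CPM in DRF and 7.299, 7.43, 8.16 and 7.38 CPM in NRF without overlap (difference -0.34, SE 0.07, adjusted p = 0.0913), and Prodh, of proline breakdown, was at 26.8, 27.6, 28.5 and 23.97 CPM in DRF and 19.9, 24.7, 17.7 and 18.5 CPM in NRF with overlap (difference 0.40, SE 0.09, adjusted p = 0.144).

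Etnppl (chr3:130617448-130635750), an astrocyte enzyme that breaks down phosphoethanolamine, was at 109, 109, 108 and 107 CPM in DRF and 75.4, 84.2, 65.1 and 75.8 CPM in NRF, and rose by 0.53 (SE 0.06, adjusted p = 0.00698). The DRF mice lay within a few CPM of each other, above a wider spread in NRF. Mertk (chr2:128698915-128803162), a receptor kinase through which astrocytes and microglia engulf debris, was at 22.9, 26.3, 21.8 and 22.6 CPM in DRF and 16.4, 16.2, 14.96 and 17.5 CPM in NRF, and rose by 0.50 (SE 0.07, adjusted p = 0.0159). The summed microglia markers were 168 to 185 CPM in DRF and 173 to 182 CPM in NRF, and the astrocyte sums are given above. Fabp7, a lipid carrier of radial and astroglial cells, was at 27.1, 17.3, 30.2 and 21.6 CPM in DRF and 37.8, 27.98, 40.5 and 43.9 CPM in NRF with overlap (difference -0.63, SE 0.20, adjusted p = 0.297), and DRF mice 2 and 4 were its lowest.

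Pla2g4e, a cytosolic phospholipase, was at 8.28, 8.04, 8.697 and 7.58 CPM in DRF and 4.59, 5.103, 5.65 and 5.57 CPM in NRF and rose by 0.56 (SE 0.08, adjusted p = 0.0203). Pigz, a mannosyltransferase of membrane anchors, was at 11.7 to 13.7 CPM in DRF and 8.73 to 9.803 CPM in NRF and rose by 0.41 (SE 0.07, adjusted p = 0.0415). Icosl, a costimulatory ligand of T cells, was at 6.67 to 7.98 CPM in DRF and 4.19 to 5.35 CPM in NRF and rose by 0.54 (SE 0.09, adjusted p = 0.0385). Mapk4, an atypical MAP kinase, was at 56.7 to 65.9 CPM in DRF and 46.5 to 50.4 CPM in NRF and rose by 0.32 (SE 0.05, adjusted p = 0.0455). Gene number 105244832 was at 36.1 to 40.9 CPM in DRF and 27.2 to 30.3 CPM in NRF and rose by 0.44 (SE 0.05, adjusted p = 0.00857); neither its name nor its place was in the reference tables.

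A pair of linker histones, which pack DNA in the nucleus, also rose. H1f2 was at 12.1, 11.3, 8.34 and 8.84 CPM in DRF and 5.94, 6.18, 5.92 and 6.12 CPM in NRF and rose by 0.65 (SE 0.10, adjusted p = 0.0375), with DRF mice 1 and 2 above mice 3 and 4. H1f0, the histone of resting cells, was at 113, 111, 96.6 and 105 CPM in DRF and 90.9, 81.7, 81.9 and 83.8 CPM in NRF and rose by 0.32 (SE 0.05, adjusted p = 0.0455). H1f2 is one of a family of similar genes, and its messenger RNA commonly lacks the poly-A tail by which the libraries were selected, so its reads are uncertain. Just outside the threshold on the lower side stood Tra2a, a splicing factor (difference -0.27, SE 0.05, adjusted p = 0.054), Top1, a DNA topoisomerase (-0.23, SE 0.04, adjusted p = 0.056), and Evi5, a regulator of the cell cycle and of membrane traffic (-0.20, SE 0.04, adjusted p = 0.056), and on the higher side Slc6a20a, a proline transporter (0.56, SE 0.10, adjusted p = 0.056).

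The cold-inducible RNA-binding proteins, whose transcripts are known to rise as temperature falls, were both above the NRF range and neither passed. Cirbp was at 84.5, 68.7, 63.2 and 60.4 CPM in DRF and 50.96, 49.5, 54.97 and 51.3 CPM in NRF (difference 0.40, SE 0.09, adjusted p = 0.142). Rbm3 was at 60.5, 55.9, 48.8 and 47.4 CPM in DRF and 42.1, 39.9, 42.3 and 47.1 CPM in NRF (difference 0.30, SE 0.08, adjusted p = 0.168), where DRF mouse 4 and NRF mouse 4 nearly met.

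**Figure D4:**
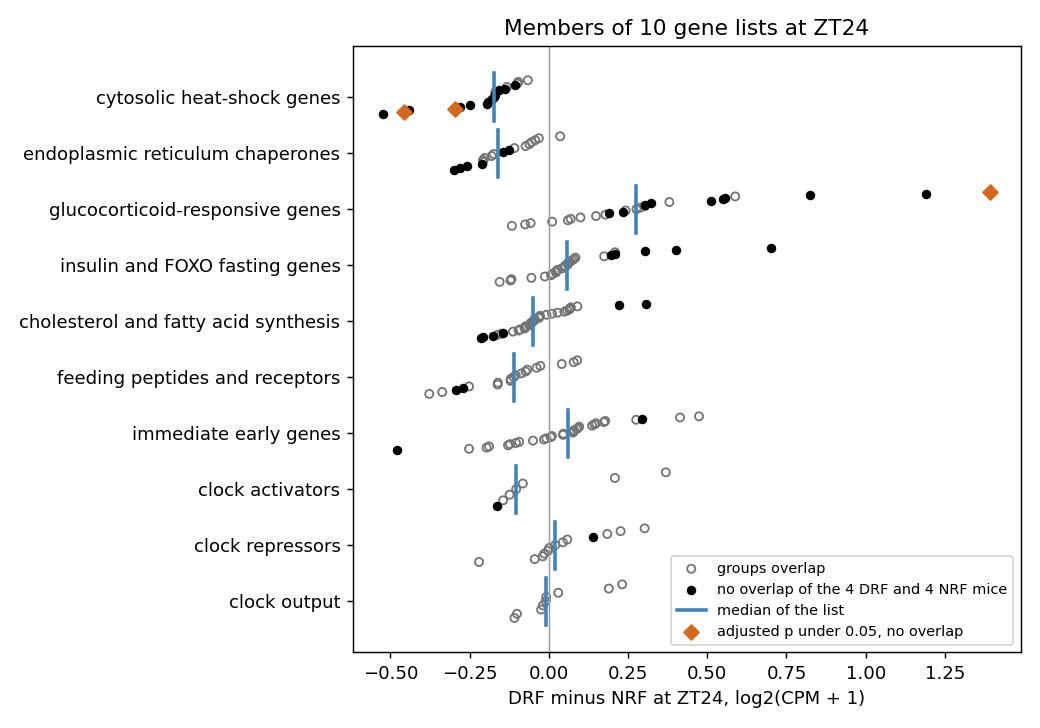
DRF minus NRF at ZT24 in log2(CPM + 1) for the members of 10 gene lists, with open circles for genes whose groups overlap, filled circles for those that do not, orange diamonds for genes past the threshold and blue bars for list medians. The heat-shock genes lie below 0 (median -0.17), most glucocorticoid-responsive genes above it (0.28), and the clock and feeding lists on both sides.

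No clock gene was called at ZT24. None of the 7 activators, 13 repressors and 9 output genes passed the test, with medians of -0.10, 0.02 and -0.01. In these lists 3, 5 and 1 had an unadjusted p under 0.05 (11.9% of all genes). Cry2, a repressor, was higher in DRF without overlap, at 96.7 to 107 against 90.7 to 96.1 CPM (difference 0.14, SE 0.04, adjusted p = 0.225). At ZT0, 5 of the repressors and 2 of the output genes were called higher (3.04% of all genes) and none lower. Per2 was at 32.1, 40.1, 31.3 and 38.9 CPM in DRF and 36.03, 35.4, 35.9 and 34.2 CPM in NRF (difference 0.00, SE 0.08, adjusted p = 0.997), with DRF mice 2 and 4 above and mice 1 and 3 below all NRF mice. Nr1d1, a repressor of Arntl, was at 79.4, 83.96, 85.4 and 94.9 CPM in DRF and 74.2, 72.1, 73.8 and 81.6 CPM in NRF (difference 0.18, SE 0.06, adjusted p = 0.232), and Dbp, an output transcription factor, was at 41.7, 45.95, 38.3 and 42.8 CPM in DRF and 33.99, 38.8, 36.97 and 33.4 CPM in NRF (0.23, SE 0.06, adjusted p = 0.182). Arntl, which with Clock drives the loop, was at 32.9, 35.2, 35.8 and 35.04 CPM in DRF and 37.3, 38.4, 37.1 and 43.4 CPM in NRF without overlap (-0.16, SE 0.06, adjusted p = 0.279). Of 16 genes typical of the suprachiasmatic nucleus, 5 lay above and 11 below 0, with a median of -0.06, no call and 1 unadjusted p under 0.05.

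Feeding peptides split the DRF mice along the marker sums, to which several of them belong. Agrp, the hunger peptide, was at 6.26, 1.79, 7.13 and 0.332 CPM in DRF and 4.72, 2.84, 3.08 and 5.96 CPM in NRF. Npy, made by the same neurons, was at 40.9, 20.3, 50.3 and 11.9 CPM in DRF and 32.8, 28.4, 28.1 and 30.95 CPM in NRF, and Pomc, the precursor of the satiety peptide, at 31.5, 13.1, 35.1 and 5.79 CPM in DRF and 19.7, 18.8, 25.3 and 25.7 CPM in NRF. In all 3, and in Avp (191, 61.5, 234 and 91.9 CPM in DRF and 176, 139.7, 139 and 138 CPM in NRF), DRF mice 1 and 3 were above every NRF mouse and DRF mice 2 and 4 below every one. The differences were -0.38, -0.16, -0.34 and -0.22 in the same order (SE 0.63, 0.45, 0.56 and 0.44), with adjusted p from 0.868 to 0.928. Without DRF mice 2 and 4, Npy had a difference of 0.58, a sign that leaving out these mice fixes, since they were its lowest and were set apart by a sum that includes it. Npy1r, a receptor of Npy, was at 23.1, 17.96, 22.7 and 22.9 CPM in DRF and 23.7, 25.8, 27.7 and 29.8 CPM in NRF without overlap (difference -0.29, SE 0.09, adjusted p = 0.225), and Mc4r, the receptor on which Agrp and the products of Pomc compete, was at 3.42, 3.25, 3.91 and 4.02 CPM in DRF and 4.43, 4.76, 4.58 and 4.64 CPM in NRF, also without overlap (-0.27, SE 0.08, adjusted p = 0.215). Over 19 feeding peptides and receptors 16 lay below 0 (median -0.11), whereas without DRF mice 2 and 4 the median was 0.17. Oxt, the oxytocin gene, was at 284, 159.8, 309 and 214 CPM in DRF and 240.2, 240.2, 222 and 189.5 CPM in NRF (difference 0.08, adjusted p = 0.929).

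Immediate early genes, which report recent neuronal activity, split DRF mice in the other direction. Fos was at 5.28, 16.8, 7.17 and 14.5 CPM in DRF and 8.26, 9.53, 8.53 and 10.7 CPM in NRF, so that DRF mice 2 and 4 were above and mice 1 and 3 below all NRF mice (difference 0.09, SE 0.35, adjusted p = 0.947). Without DRF mice 2 and 4, its highest, its difference was -0.51, a sign that leaving them out likewise fixes. Of 30 immediate early genes 19 lay above and 11 below 0, with a median of 0.06 and no call, and the 3 with an unadjusted p under 0.05 and the 2 without overlap were no larger a share than among all genes (11.9% and 7.7%). The 2 without overlap were Npas4, at 17.02, 17.4, 14.3 and 18.02 CPM in DRF and 13.4, 12.9, 14.1 and 13.1 CPM in NRF (difference 0.30, SE 0.07, adjusted p = 0.144), and Nr4a2, an orphan nuclear receptor, at 8.47, 8.07, 6.84 and 7.28 CPM in DRF and 10.4, 9.597, 11.5 and 12.97 CPM in NRF (-0.48, SE 0.09, adjusted p = 0.0911).

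The mice at ZT0 were at the same time of day and were other animals, so they show which differences were found again. All 22 genes called at ZT24 had the same direction at ZT0, where 60.6% of all 16231 genes had the same direction at both times, and 16 of the 22 were called there too, 10 higher and 6 lower, against 6.04% of all genes. The median of the 13 higher genes was 0.50 at ZT24 and 0.42 at ZT0, and of the 9 lower ones -0.36 and -0.32. Hif3a at ZT0 was at 14.5, 10.5, 11.6 and 13.4 CPM in DRF and 3.67, 2.28, 2.11 and 3.68 CPM in NRF, a difference of 1.80 (SE 0.15, adjusted p = 0.000384). Hsph1 at ZT0 was at 284, 317, 298 and 329 CPM in DRF and 508, 407, 428 and 407 CPM in NRF, a difference of -0.51 (SE 0.07, adjusted p = 0.00514). The 6 not called at ZT0 were H1f2, Pigz, H1f0, Vcam1, Slc5a3 and Aqp4, with differences there of 0.27, 0.18, 0.09, -0.12, -0.28 and -0.30.

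Far more genes were called at ZT0, 981 against 22, and the genes called at ZT0 mostly kept their direction at ZT24. Of 494 genes higher in DRF at ZT0, 426 (86.2%) were above 0 at ZT24 and 94 (19%) had no overlap there, against 3.27% of all genes, yet their median was 0.09 at ZT24 and 0.25 at ZT0. Of 487 lower at ZT0, 412 (84.6%) were below 0 at ZT24 and 126 (25.9%) had no overlap, against 4.42%, with medians of -0.09 and -0.25. The ZT0 medians are those of genes picked for their size at ZT0, so the smaller ZT24 medians are no test of a change. In the heat-shock list 14 of 21 genes were called lower at ZT0, against 3% of all genes, with a median of -0.29, and in the ER list 10 of 18. In the glucocorticoid list 14 of 25 were called higher at ZT0, against 3.04%, with a median of 0.24. Cirbp at ZT0 was at 114, 90.8, 92.8 and 97.1 CPM in DRF and 46.4, 65.00, 53.1 and 64.6 CPM in NRF and Rbm3 at 101, 92.8, 98.8 and 84.00 CPM in DRF and 41.6, 58.1, 46.7 and 55.2 CPM in NRF, differences of 0.78 and 0.89 (adjusted p = 0.0151 and 0.00486).

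Tested directly, the regimen difference at ZT24 differed from that at ZT0 in 1 gene of 16231 (0.00616%), while 1641 (10.1%) had an unadjusted p under 0.05. That gene was Per3 (chr4:150997018-151044707), a member of the period family of clock repressors. At ZT24 it was at 55.9, 54.8, 53.6 and 53.3 CPM in DRF and 54.6, 56.8, 54.4 and 53.9 CPM in NRF, fully overlapping (difference -0.01, SE 0.04). At ZT0 it was at 63.8, 63.04, 71.9 and 64.3 CPM in DRF and 48.2, 46.00, 50.7 and 50.04 CPM in NRF, with no overlap (difference 0.42, adjusted p = 0.00188), and the difference of differences was -0.44 (SE 0.06, adjusted p = 0.0203). The call was lost in 14 of 28 alternative fits, among them those without NRF mouse 1 or 2 at ZT0 and without any of NRF mice 1 to 3 at ZT24, and the direction in none.

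At ZT12 the schedule was turned around, since DRF mice were then at the end of their feeding window and NRF mice at the end of 12 h without food. In that comparison 2 genes of 16231 (0.0123%) were called and 1877 (11.6%) had an unadjusted p under 0.05. Of the 22 genes called at ZT24, 20 had the opposite direction at ZT12, where 54.4% of all genes did, and the exceptions were Aqp4 (-0.18) and Mapk4 (0.05). The medians at ZT12 were -0.20 for the 13 higher and 0.21 for the 9 lower genes. Hif3a at ZT12 was at 13.7, 12.8, 12.8 and 11.3 CPM in DRF and 25.4, 20.3, 21.3 and 21.8 CPM in NRF, a difference of -0.76 (SE 0.08, adjusted p = 0.0237). DRF mice thus spanned 9.21 to 12.4 CPM at ZT24 and 11.3 to 13.7 CPM at ZT12, whereas NRF mice spanned 2.84 to 5.45 CPM and 20.3 to 25.4 CPM.

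The regimen difference at ZT24 differed from that at ZT12 in 203 genes (1.25%), 101 in the higher and 102 in the lower direction (0.622% and 0.628%), with 2553 (15.7%) at an unadjusted p under 0.05. Among them were 19 of the 22 genes, while Aqp4 and Mapk4 were not, and this share is partly fixed because the contrast holds the ZT24 difference by which the 22 were chosen. Without 1 mouse the 203 became 65 (without DRF mouse 2 at ZT24) to 446 (without NRF mouse 4 at ZT12), and with trends of GC content, length and expression removed 547. The difference of differences was 2.16 for Hif3a (SE 0.19, adjusted p = 2.25e-05), 1.35 for Mt2 (SE 0.15, adjusted p = 0.000573) and 0.98 for Mt1 (SE 0.12, adjusted p = 0.000573). It was -0.90 for Serpinh1 (adjusted p = 0.00539), -0.65 for Hsph1 (adjusted p = 0.00185), 1.27 for Hr, a corepressor of the thyroid hormone receptor (adjusted p = 0.00843), and 0.75 and 0.81 for Cirbp and Rbm3 (adjusted p = 0.01 and 0.0228).

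By list, 7 of the 21 heat-shock genes and 2 of the 18 ER genes were called in the lower direction between ZT24 and ZT12, against 0.628% of all genes, and 9 of the 25 glucocorticoid-responsive genes in the higher direction, against 0.622%. The contrast holds the ZT24 differences already given for these lists, so these shares too are partly fixed. The heat-shock median was -0.17 at ZT24 and 0.17 at ZT12, and the glucocorticoid median 0.28 and -0.25. Hsph1 at ZT12 was at 340.1, 375, 360.2 and 416 CPM in DRF and 294, 265, 294 and 309 CPM in NRF. Mt2 at ZT12 was at 90.5, 87.2, 102 and 94.2 CPM in DRF and 139, 125, 149.9 and 128 CPM in NRF. In both genes the regimen with the higher level at ZT12 was the lower one at ZT24. Among clock genes Dbp (0.56, adjusted p = 0.0184) and Ciart, a repressor of the loop (0.67, adjusted p = 0.0143), were called in this contrast.

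**Figure D5:**
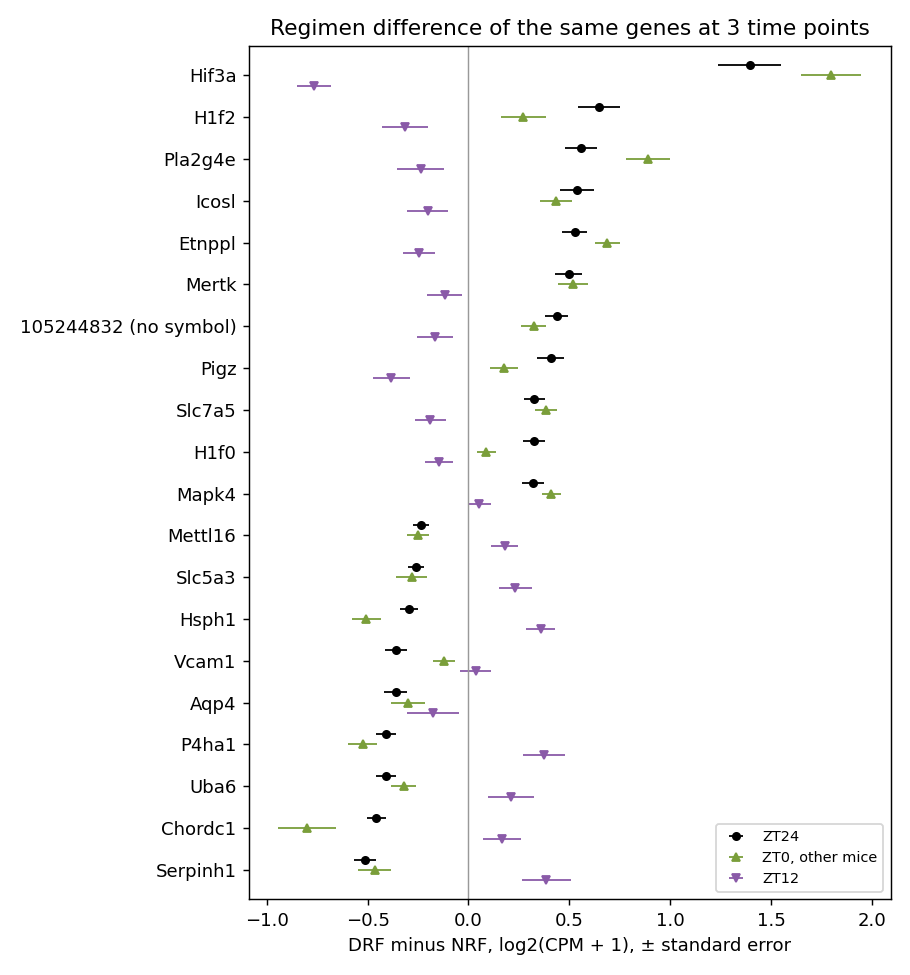
DRF minus NRF in log2(CPM + 1) with its standard error for 20 of the 22 genes called at ZT24, at ZT24 (black circles), at ZT0 in other mice (green triangles) and at ZT12 (purple inverted triangles). All 20 lie on the same side of 0 at ZT24 and ZT0, and 18 of them, all but Aqp4 and Mapk4, lie on the other side at ZT12.

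Lists of broad cell functions held no called gene. Of 78 cytosolic ribosomal protein genes 62 lay above 0 with a median of 0.03, while the medians of single DRF mice ran from -0.12 to 0.12. Of 77 nuclear genes of the respiratory chain and ATP synthase 50 lay above 0 with a median of 0.02, and single DRF mice ran from -0.03 to 0.06. In these lists 0 and 1 gene had an unadjusted p under 0.05. In the core Hippo pathway, which restrains growth through the coactivators Yap1 and Wwtr1, no gene of 20 was called, and 9 lay above and 11 below 0, from -0.21 to 0.29 with a median of -0.05. In that list 6 had an unadjusted p under 0.05 (11.9% of all genes) and 4 had no overlap, all lower in DRF (4.42% of all genes). Yap1 was at 16.9, 18.2, 18.7 and 17.4 CPM in DRF and 20.1, 20.7, 21.3 and 20.5 CPM in NRF (difference -0.21, SE 0.05, adjusted p = 0.151), and Wwtr1 at 18.7, 18.9, 17.98 and 20.3 CPM in DRF and 21.1, 20.9, 22.2 and 21.9 CPM in NRF (-0.17, SE 0.05, adjusted p = 0.232). Among 10 thyroid hormone genes Hr was at 50.2, 48.9, 55.7 and 38.1 CPM in DRF and 36.8, 32.5, 25.4 and 33.2 CPM in NRF without overlap (difference 0.58, SE 0.14, adjusted p = 0.182), and the list's median was 0.06.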

How the data were processed

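RNA was poly-A selected from the anterior hypothalamus of 56 mice and sequenced. Per the labels and the study's methods, the authors used SOAPnuke, HISAT2, Bowtie2 and RSEM on GRCm38.p6, and edgeR for TMM normalisation. The deposited values, named TPM, behaved as a score: the log2 of CPM + 1 divided by gene length and rescaled to a sum of 999577 to 999699 per mouse at ZT24. Dividing this out gave back CPM and, for 15392 of 17564 genes (87.6%), whole reads within 0.05 in at least 90% of mice, while 1649 genes came back from values with 2 decimals, 509 from an annotated length only and 14 not at all. Nr1d1 was among the 509, so its reads did not check its length, and the size of its CPM and difference is less sure. Gene number 105244832 was among the 1649, with a length found by search. Compressed values would have understated differences, and the test written for them was therefore run on recovered log2(CPM + 1).

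Genes were tested (16231) if their deposited value reached 1 in 80% or more of all 56 mice. The 4 DRF and 4 NRF mice at ZT24 were fitted with limma 3.58.1 in R 4.3.3 (trend and robust), with Benjamini-Hochberg adjustment, and the differences from ZT0 and ZT12 as interaction contrasts over 16 mice each. Marker sums were compared by exact permutation (scipy 1.17.1). Symbols were found for 17471 genes and not for 93. The reads recovered from the deposited values summed to 30296789 to 31892358 per mouse at ZT24. This sum estimates the reads assigned to the deposited genes. It leaves out the 14 genes not recovered and includes the 509 whose length the reads did not check. It is not the sequencing depth, for which the paper states a higher minimal coverage. Counting error alone would give an SD of log2(CPM + 1) of 0.13, 0.08 and 0.03 at 1, 10 and 100 CPM, beside median SDs among mice of 0.16, 0.10 and 0.06, so it makes up much of the spread of genes with few reads. The scripts were tested on simulated data.

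Genes named in the text were up to 10 higher and 10 lower with the largest differences among those called without overlap and with a mean log2 level of at least 1. Only 9 were called lower, so that side was filled by smallest p with Tra2a, which was not called. Also named were the 6 next by p, up to 4 of each list by p, a set of clock, stress and peptide genes named in any case, and the 5 with the smallest p in each interaction. Other list members, such as Txnip, Hspa8 and Nr3c1, were named after their values were seen, and 2 of the genes called at ZT24 are counted but not reported here. The members and the lists were chosen with earlier results of these data known. Alternatives changed the mice in the fit, the filter, the scale, the normalisation between libraries, the moderation and trends within libraries. After the data were seen, fits were added with the arcuate marker level as a term and without DRF mice 2 and 4.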

Additional observations from a re-analysis of the deposited data

Results flagged for a closer look

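The highest or lowest mouse of a group of 4 lay far from the other 3, by Dixon's 95% criterion, in 14 of 244 groups of named genes, where chance alone flags about 1 in 20. Among DRF mice at ZT24, mouse 3 was lowest for gene number 105244832 (36.1 against 40.5 to 40.9 CPM) and for Vcam1 (24.3 against 26.8 to 27.1 CPM), mouse 4 for Fkbp5 (23.1 against 28.0 to 28.6 CPM), and mouse 2 for Npy1r (17.96 against 22.7 to 23.1 CPM) and Ucn3 (5.36 against 6.97 to 7.27 CPM). DRF mouse 2 was one of the mice with low hypothalamic marker sums.

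Among NRF mice at ZT24, mouse 2 was lowest for Serpinh1 (22.1 against 23.6 to 23.8 CPM) and Mettl16 (60.5 against 63.6 to 64.2 CPM) and highest for Mt1 (179 against 141 to 146 CPM). NRF mouse 4 was lowest for Phgdh (59.5 against 64.0 to 64.8 CPM) and highest for Dnajc3 (93.9 against 85.3 to 86.3 CPM), Sc5d (124 against 117 to 118 CPM) and Hlf (139 against 102 to 108 CPM). NRF mouse 3 was highest for Pipox (8.16 against 7.30 to 7.43 CPM) and NRF mouse 1 for Avp (176 against 137.8 to 139.7 CPM).

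The regimen difference was not the same at 2 time points, by limma's interaction test with adjusted p under 0.05, in 37 results on named genes. Between ZT24 and ZT0 it differed for Per3 (-0.44). Between ZT24 and ZT12, 24 genes moved in the higher direction. Among stress- and glucocorticoid-related genes these were Hif3a (2.16), Mt2 (1.35), Mt1 (0.98), Arrdc2 (0.90), Map3k6 (0.76) and Klf9 (0.53). Hr moved by 1.27, Rbm3 by 0.81, Cirbp by 0.75, Trib1 by 0.79, Pik3ip1 by 0.42, Ciart by 0.67 and Dbp by 0.56. Metabolic enzymes and transporters were Pla2g4e (0.79), Pigz (0.79), Etnppl (0.77), Prodh (0.60), Slc7a5 (0.52) and Phgdh (0.34), and the others H1f2 (0.96), Icosl (0.74), Mertk (0.62), gene number 105244832 (0.60) and H1f0 (0.47). In the lower direction were 12 genes. They were Serpinh1 (-0.90), P4ha1 (-0.78), Npy1r (-0.69), Hsph1 (-0.65), Chordc1 (-0.62), Uba6 (-0.62), Pdia4 (-0.62), Slc5a3 (-0.49), Mettl16 (-0.41), Vcam1 (-0.39), Yap1 (-0.36) and Wwtr1 (-0.35).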

How the results depend on the processing

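The number of genes called moved with the fit more than the values did. Of 22 called genes, all had the same direction in every alternative, Serpinh1 passed in all of them, and 7 passed in each of the 8 fits that left out 1 mouse (among them Chordc1, Serpinh1, Etnppl, P4ha1, Uba6 and gene number 105244832). Of 3596 values of named genes under alternatives, 3198 stayed on their side of the threshold, 304 lost a call, 65 gained one, 27 changed sign without a call and 2 changed sign to a call. Those 2, both without DRF mice 2 and 4, were Npy (0.58) and Fos (-0.51). These mice were set apart after the data were seen, by sums that include Npy, and held the lowest Npy and highest Fos levels, so leaving them out fixes both signs and the calls support nothing. Of 440 list medians 426 moved by less than the spread of mice. Why counts moved was not tested.

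The 22 calls at ZT24 became 48 with 1 fit over all 56 mice, 14 without a filter on low values, 1 on the deposited scale, 1 in limma without trend and robust estimation, 163 with the arcuate marker level as a covariate and 578 without DRF mice 2 and 4. Leaving out 1 mouse gave 8 (without DRF mouse 2, NRF mouse 1 or NRF mouse 4) to 98 (without DRF mouse 4), with 12, 11, 14 and 12 without DRF mouse 1, DRF mouse 3, NRF mouse 2 and NRF mouse 3. The 1 call of ZT24 against ZT0 became 0 on the deposited scale, without trend and robust estimation, with trends of length, expression and GC removed, with the arcuate covariate and without DRF mice 2 and 4, and 0 to 2 with 1 mouse left out. The 203 calls of ZT24 against ZT12 became 463 over all mice, 547 with trends removed, 376 with the arcuate covariate and 114 without DRF mice 2 and 4. With 1 mouse left out they ran from 65 (without DRF mouse 2 at ZT24) to 446 (without NRF mouse 4 at ZT12), with 131 without DRF mouse 1 and 115, 90, 93 and 84 without NRF mice 1 to 4 at ZT24, and 100 and 99 without NRF mice 1 and 3 at ZT12.

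Replicate numbers did not pair the mice: deviations of same-numbered mice correlated by 0.15, 0.05, 0.05 and -0.04 over 13991 genes, and 2 of 8 mice correlated best with their own number. With the replicate block 14 genes were called at ZT24 (11 of the 22 among them), 0 against ZT0 and 121 against ZT12. Depth limits genes of low CPM.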

Other observations

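Of the other list members, 4 that did not pass the test are named here after their values were seen. Plin4, a coat protein of lipid droplets, was at 7.01, 14.1, 13.4 and 7.18 CPM in DRF and at 3.80, 5.95, 2.81 and 3.13 CPM in NRF, a difference of 1.19 (SE 0.29, limma adjusted p = 0.19) that was 1.23 at ZT0 and -0.79 at ZT12. Txnip, an inhibitor of glucose uptake, was at 25.3, 30.7, 27.7 and 23.2 CPM in DRF and at 19.4, 15.3, 11.5 and 18.9 CPM in NRF, a difference of 0.70 (SE 0.16, limma adjusted p = 0.165). Sult1a1, a sulfotransferase, was at 18.1, 19.1, 21.9 and 15.9 CPM in DRF and at 13.3, 14.1, 9.29 and 13.6 CPM in NRF (0.55, SE 0.13, limma adjusted p = 0.156). Zbtb16, a transcription factor induced by glucocorticoids, overlapped, at 21.9, 14.3, 18.7 and 17.99 CPM in DRF and at 12.7, 13.8, 14.7 and 13.4 CPM in NRF (0.38, SE 0.10, limma adjusted p = 0.188), where its difference at ZT0 was 0.95.

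Gm14434, a predicted gene, had the lowest difference of all genes tested (-3.29, SE 1.07, limma adjusted p = 0.316). It was listed at 0 in DRF mice 1, 2 and 3 and at 18.5 CPM in mouse 4, and at 23.8, 13.7, 26.7 and 16.98 CPM in NRF, so its groups overlapped.

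Of 9 genes of metallothioneins and zinc handling, 6 lay above 0 with a median of 0.05. Mt3, the brain form of metallothionein, had a difference of 0.15 (adjusted p = 0.52), and Slc39a10, a zinc importer, -0.12 (adjusted p = 0.297) without overlap. Of 16 neuroendocrine peptides 9 lay above 0 with a median of 0.02, no call and no pair of groups without overlap.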
